A study of Mus musculus with 24 samples.

Results

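The genes described here encode the core of the interleukin-1 (IL-1) family and of the inflammasome. They are the ligands Il1a, Il1b and Il18, the receptor antagonist Il1rn, the signalling receptor Il1r1, the decoy receptor Il1r2, the sensor Nlrp3, the adaptor Pycard, the protease Casp1 and the pore former Gsdmd. They and the other gene lists were chosen by name, with earlier results of these data known. Counts set beside shares of all genes are therefore descriptions and no test of the lists. Each symbol of these genes matched 1 Ensembl identifier, and together they are 10 of the 41388 genes in the deposited count table. RNA came from part of the heart in 24 wild type BALB/c mice (BALB/cAnNCrl), all male, which were 8 to 10 weeks old when immunized. Experimental autoimmune myocarditis (EAM) was induced with a myosin heavy chain-α peptide in supplemented complete Freund's adjuvant on day 0 and day 7, with pertussis toxin on day 0. Control mice received the adjuvant with PBS in place of the peptide and the toxin too. By the study's methods the peptide was dissolved in PBS with DMSO, which is not named for the controls. Hearts were taken on D10, D15 and D21, counted in days from the first immunization, with 4 EAM and 4 control mice per day. By those methods samples were picked to show inflammation as far as possible, so they are not a random draw from immunized mice.

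IL-1α, encoded by Il1a, and IL-1β, encoded by Il1b, bind the receptor encoded by Il1r1 and start inflammatory signalling through MyD88. The antagonist encoded by Il1rn occupies that receptor without signalling, and the decoy receptor encoded by Il1r2 binds the ligands without passing a signal on. IL-1β and IL-18 are made as inactive precursors. The inflammasome, in which the sensor NLRP3 recruits the adaptor ASC (Pycard) and caspase-1 (Casp1), cleaves both precursors and also gasdermin D (Gsdmd), whose fragment forms pores in the cell membrane. Monocytes, macrophages and neutrophils are well known sources of several of these transcripts. Messenger RNA levels, which are all that was measured here, do not show whether the proteins were cleaved or released.

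On the GRCm38 genome Il1a (chr2:129299610-129309972, minus strand) and Il1b (chr2:129364570-129371139, minus strand) lie side by side, 54597 bases apart, and Il1r2 and Il1r1 lie 99848 bases apart on the plus strand of chromosome 1. The other members lie apart from each other: Il1rn at chr2:24336853-24351494, Il18 at chr9:50554827-50581840, Nlrp3 at chr11:59541568-59566956, Pycard at chr7:127989708-127993867, Casp1 at chr9:5298517-5307265 and Gsdmd at chr15:75862327-75867408. RefSeq promoter windows (GRCm38.p6, 250 bases before to 50 after a start site) were at hand for 9 of the 10 members, in 13 windows. The 250 bases before the start are shown for the ligand pair and for the sensor Nlrp3, whose first window holds a match to the NF-kappaB consensus. Capitals mark matches, on either strand, to the motifs named below.
Il1a, chr2:129309973-129310222, minus strand: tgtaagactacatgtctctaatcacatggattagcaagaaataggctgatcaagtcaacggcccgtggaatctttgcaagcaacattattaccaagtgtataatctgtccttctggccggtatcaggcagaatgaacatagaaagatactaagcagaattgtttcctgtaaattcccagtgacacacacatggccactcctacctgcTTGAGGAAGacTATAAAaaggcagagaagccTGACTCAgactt
Il1b, chr2:129371140-129371389, minus strand: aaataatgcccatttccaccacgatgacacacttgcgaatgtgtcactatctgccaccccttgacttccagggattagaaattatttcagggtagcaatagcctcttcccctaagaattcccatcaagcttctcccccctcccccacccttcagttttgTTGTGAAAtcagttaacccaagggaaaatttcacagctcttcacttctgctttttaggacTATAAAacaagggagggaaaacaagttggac
Nlrp3, chr11:59541319-59541568, plus strand: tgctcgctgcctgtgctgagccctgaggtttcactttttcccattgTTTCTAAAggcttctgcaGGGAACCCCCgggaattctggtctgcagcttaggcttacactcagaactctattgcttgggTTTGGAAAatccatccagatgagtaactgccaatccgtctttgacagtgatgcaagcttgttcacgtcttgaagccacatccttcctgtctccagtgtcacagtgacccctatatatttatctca

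Both strands of each window were searched for 7 motifs. The counts are of the 9 members with a window, some with several windows that can overlap, and the shares are of all 32851 single windows, so they are not like for like. The letters of a TATA box (TATAAA) were found for 4 members, in 4 of the 13 windows, against 13.6% of all windows. In Il1a and Il1b they lay on the gene's strand and began 32 and 31 bases before the start. In Il18 and Il1rn they lay on the opposite strand, at position -175 in Il18 and position 15, after the start, in Il1rn. C/EBP (TTNNGNAA) was found for 6 members, in 9 windows, against 40.7% of windows, and AP-1 (TGANTCA) for 2, Il1a and Il1rn, against 7.81%. In Il1a the AP-1 letters began 12 bases before the start, and the PU.1 letters (GAGGAAG) overlapped the C/EBP match. PU.1 was found for 3 members (Il1a, Nlrp3 and Pycard), against 13.6%, and GAS (TTCNNNGAA) for 1, Il1r2, against 8.30%. The NF-kappaB consensus was found for 2 (Nlrp3 and Il1r1), against 8.46%, and IRF (GAAANNGAA) for 0, against 8.56%. These are matches of letters in short windows and describe no binding.

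Libraries held 15814863 to 24980864 assigned reads. Levels are given as CPM, the usual library-size scaled read count, with TMM factors. In a library, 3 reads were worth 0.105 to 0.2004 CPM. EAM replicate 1 at D10 stood apart from the other 3 D10 EAM hearts: Ptprc, the leucocyte gene that encodes CD45, was at 194, 27.7, 56.7 and 41.6 CPM in the 4 hearts, against 23.9 to 38.6 CPM in D10 controls. At D21 Ptprc was at 149, 96.3, 48.9 and 228 CPM in the EAM hearts, lowest in replicate 3. At D15 it was at 243 to 305 CPM in EAM and 16.5 to 20.7 CPM in control hearts. The tissue label was borne out by 7 cardiomyocyte markers, which summed to 26639 to 31299.8 CPM in D15 control hearts and 7228 to 18508 CPM in D15 EAM hearts, with none at 0. The 4 D21 EAM libraries carry another library code than the other 20, so at D21 disease and library code cannot be told apart.

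All 10 members were induced in EAM hearts at D15, from 3.47-fold for Il1r1 to 261-fold for Il1a, and for each of them the 4 EAM hearts lay above the 4 control hearts. Induced means an adjusted p under 0.01 and a change of at least 2-fold by the quasi-likelihood test of edgeR, where p was adjusted over all genes tested (Benjamini-Hochberg). By that rule 18.1% of the 15693 genes tested were induced at D15 and 12.9% repressed, and 34.5% had EAM hearts that did not overlap with control hearts on the higher side. At D10, 0 members were induced, and 0% of the 15029 genes tested. At D21, 4 of the 9 members tested were induced (Il1a, Il1b, Il1rn and Nlrp3), against 4.13% of 15266 genes. The median log2 fold change of the members tested was 2.14 (D10), 3.90 (D15) and 2.29 (D21), beside medians of -0.01, 0.02 and -0.01 over all genes tested. Some members reached the test through their EAM hearts alone, since their control hearts would not have passed the minimum of 10 reads in 4 samples: 2 at D10 and 2 at D21 (Il1a and Il18) and 3 at D15 (with Il1r2). For these, a difference was built into being tested.

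**Figure D1:**
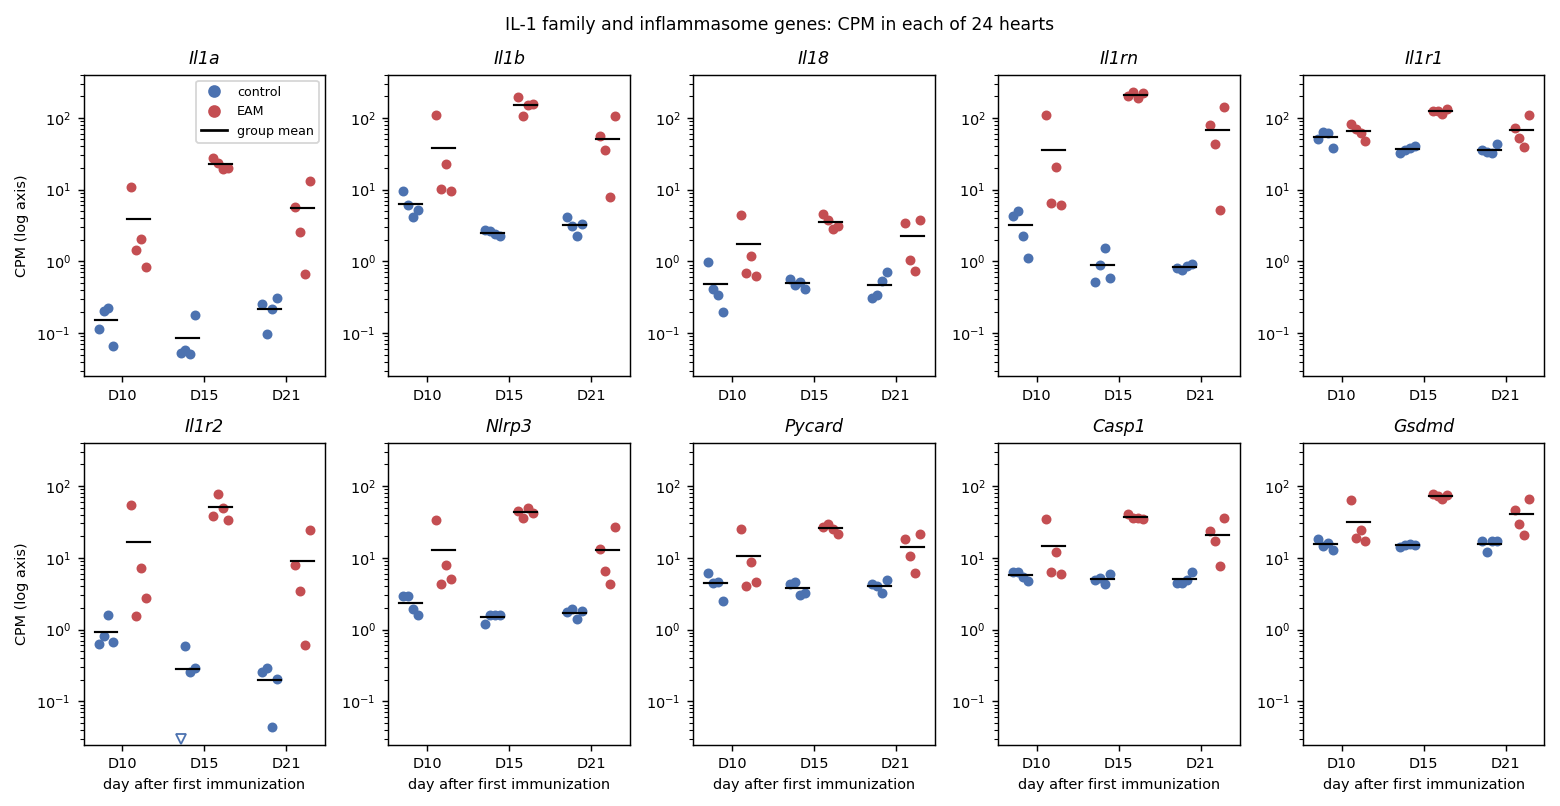
CPM (log axis) of each member in each of 24 hearts by day, control in blue and EAM in red, with the mean of each group as a black line. In every panel the 4 D15 EAM hearts lie above the 4 D15 control hearts, while D10 and D21 EAM hearts are spread more widely in most panels, least so for Il1r1 at D10. The open triangle marks a D15 control heart in which Il1r2 had 0 reads.

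Among the ligands, Il1a was almost undetected in control hearts and Il1b was not. At D15 Il1a had 1, 1, 1 and 3 reads in the control hearts and 657, 670, 456 and 524 reads in the EAM hearts. Its log2 fold change was 8.03 ± 0.27 (approximate SE, n = 4 and 4, adjusted p = 2.24e-08). Here and below, the SE of a fold change is its size divided by the square root of the test's F value. For a gene with so few control reads it can understate the error. Since the control hearts held 6 Il1a reads in all, the ratio of summed reads, 272 per unit of library size, has an exact 95% interval of 125 to 743, which covers counting error only. Control hearts at the other days had 11 Il1a reads in all at D10 and 18 at D21, so it was near the limit of detection there too. At D10 the EAM hearts were at 11, 1.42, 2.06 and 0.844 CPM, all above the controls, and the difference did not pass the test (log2 fold change 4.56 ± 1.0, adjusted p = 0.328). At D21 they were at 5.76, 2.56, 0.668 and 13.1 CPM, and the difference passed narrowly (log2 fold change 4.67 ± 0.92, adjusted p = 0.00995). Annotated antisense genes overlap the exons of Il1a (222 bases, Gm14023, 419 reads over 24 hearts) and Il1b (25 bases, Il1bos, 137 reads), and whether counting used strand is not stated in the sources used here.

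Il1b, the precursor of the main secreted IL-1, was at 2.71, 2.66, 2.38 and 2.24 CPM in D15 control hearts and 192, 106, 150.3 and 155 CPM in D15 EAM hearts. The groups did not overlap, and the log2 fold change was 5.95 ± 0.21 (adjusted p = 2.72e-08). At D10 the EAM hearts were at 111, 10.3, 22.5 and 9.39 CPM and the controls at 9.65, 6.04, 4.16 and 5.15 CPM. There 1 EAM heart, replicate 1, was far above the rest, and the lowest EAM heart was below the highest control. At D21 the EAM hearts were at 56.2, 35.9, 7.95 and 105 CPM, against 2.27 to 4.12 CPM in controls, and all 4 were higher (log2 fold change 4.04 ± 0.70, adjusted p = 0.00719).

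Il18, the other ligand that caspase-1 processes, was measured with few reads throughout. It had 11, 8, 10 and 7 reads in D15 control hearts and 108, 107, 66 and 81 in D15 EAM hearts, a log2 fold change of 2.86 ± 0.22 (adjusted p = 4.17e-06). At D21 it was at 3.40, 1.04, 0.735 and 3.81 CPM in EAM hearts, above the control range of 0.305 to 0.717 CPM, in replicate 3 by little, and it did not pass the test (log2 fold change 2.29 ± 0.60, adjusted p = 0.0225). Per kilobase of the annotated principal transcript, Il1b was 17.9 to 34.2 times the level of Il18 in D15 EAM hearts and 2.92 to 3.57 times in D15 control hearts.

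The antagonist Il1rn was, with Il1a and Il1r2, among the members with the largest fitted changes at D15, and the order of these genes was not tested. It was at 0.521, 0.885, 1.55 and 0.589 CPM in D15 control hearts and 199, 230.1, 186 and 223 CPM in D15 EAM hearts. The EAM hearts differed little among themselves, and the log2 fold change was 7.90 ± 0.25 (adjusted p = 1.80e-08). At D10 it was at 110.0, 6.40, 20.3 and 6.12 CPM in EAM and 4.28, 5.02, 2.25 and 1.12 CPM in control hearts, and the groups did not overlap although the difference did not pass the test (log2 fold change 3.47 ± 1.01, adjusted p = 0.328). At D21 it was at 79.5, 43.5, 5.14 and 142 CPM in EAM hearts and 0.768 to 0.922 CPM in controls. Its log2 fold change at D21, 6.35 ± 0.97, was above that of the other members tested, with an adjusted p of 0.00581.

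The signalling receptor Il1r1 changed least. It was at 32.0, 35.9, 37.6 and 41.0 CPM in D15 control hearts and 124, 126, 113 and 133 CPM in D15 EAM hearts, with tight groups that did not overlap (log2 fold change 1.80 ± 0.09, adjusted p = 2.23e-07). At D10 the means were 53.4 ± 11.5 CPM (SD, n = 4) in control and 65.2 ± 14.9 CPM in EAM hearts, groups that overlapped (log2 fold change 0.27 ± 0.20, adjusted p = 0.464). At D21 they were 36.0 ± 4.63 and 68.6 ± 31.1 CPM, and the lowest EAM heart was below the highest control (log2 fold change 0.96 ± 0.30, adjusted p = 0.0408).

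The decoy receptor Il1r2 rose from a level near 0. It was at 0, 0.590, 0.259 and 0.294 CPM in D15 control hearts and 38.6, 77.9, 49.9 and 34.1 CPM in D15 EAM hearts. Every EAM heart was above every control, and the log2 fold change was 7.51 ± 0.48 (adjusted p = 1.2e-06). At D21 it had 160, 63, 9 and 445 reads in EAM and 5, 6, 1 and 4 in control hearts, and it was not tested, since only 3 hearts reached 10 reads. The EAM hearts there were all above the controls in CPM, replicate 3 on few reads. The ratio of summed reads was 48.9, with an exact 95% interval of 29.9 to 86.0 for counting error. At D10 the 4 EAM hearts were at 53.9, 1.53, 7.13 and 2.74 CPM, and replicate 2 was within the control range of 0.628 to 1.57 CPM.

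The inflammasome sensor Nlrp3 had a larger fitted change than Pycard, Casp1 or Gsdmd. It was at 1.2, 1.59, 1.61 and 1.59 CPM in D15 control hearts and 45.4, 35.8, 49.7 and 41.8 CPM in D15 EAM hearts (log2 fold change 4.89 ± 0.14, adjusted p = 1.43e-08). The D10 EAM hearts, at 33.7, 4.31, 7.96 and 5.12 CPM, were all above the D10 controls, at 2.91, 2.97, 1.91 and 1.59 CPM. The difference did not pass the test, with replicate 1 or without it (log2 fold change 2.43 ± 0.68, adjusted p = 0.328). At D21 the EAM hearts were at 13.4, 6.54, 4.34 and 26.8 CPM and the controls at 1.40 to 1.92 CPM (log2 fold change 2.93 ± 0.56, adjusted p = 0.00920), a call that was lost in the fit that blocked on the replicate number (adjusted p = 0.0114).

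The adaptor, the protease and the pore former were all induced at D15, Gsdmd with the smallest fitted change of the 3. Pycard was at 4.27, 4.66, 3.0 and 3.24 CPM in D15 control hearts and 26.5, 29.6, 25.3 and 21.6 CPM in D15 EAM hearts (log2 fold change 2.80 ± 0.16, adjusted p = 5.07e-07). Casp1 was at 4.84, 5.19, 4.35 and 5.95 CPM in control and 41.0, 36.0, 36.3 and 35.2 CPM in EAM hearts (log2 fold change 2.91 ± 0.11, adjusted p = 3.64e-08). Gsdmd was at 14.1, 15.2, 15.3 and 14.9 CPM in control and 76.7, 72.5, 65.7 and 74.2 CPM in EAM hearts (log2 fold change 2.32 ± 0.07, adjusted p = 1.43e-08). In each case the EAM hearts were close together and far above the controls. Gsdmd, the effector of pyroptosis, was already at 12.1 to 18.0 CPM in the 12 control hearts.

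At D21 the EAM hearts lay above the controls for these 3 genes too, but none of the 3 passed the quasi-likelihood test of the 8 hearts. All 3 were called by the likelihood ratio test, by DESeq2, in the fit of all 24 hearts, without EAM replicate 3 and at an adjusted p under 0.05. Pycard and Casp1 were also called with no filter on low counts, and Pycard in the fit that blocked on the replicate number. Casp1 was at 23.5, 16.8, 7.75 and 35.5 CPM in EAM and 4.42 to 6.30 CPM in control hearts (log2 fold change 2.10 ± 0.42, adjusted p = 0.0103). Pycard was at 18.2, 10.5, 6.15 and 21.2 CPM in EAM and 3.24 to 4.86 CPM in control hearts (log2 fold change 1.81 ± 0.38, adjusted p = 0.0116), and Gsdmd at 45.8, 29.2, 20.8 and 65.1 CPM in EAM and 12.1 to 17.0 CPM in control hearts (log2 fold change 1.39 ± 0.34, adjusted p = 0.0185). EAM replicate 3 came nearest to the controls each time.

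**Figure D2:**
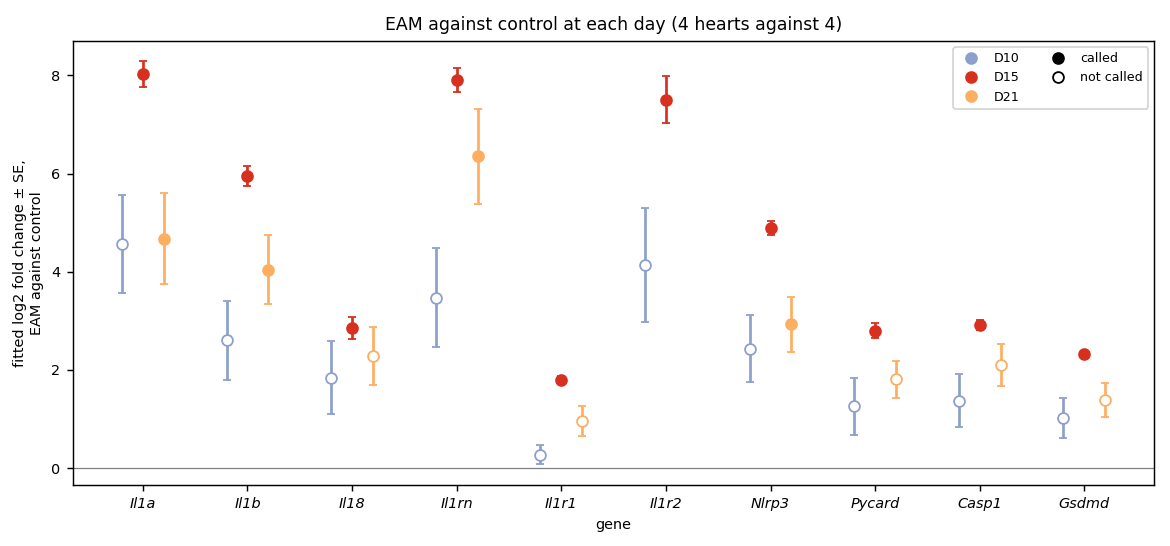
Fitted log2 fold change with its approximate standard error (from the test's F value) for each member, EAM against control, at D10 (blue), D15 (red) and D21 (orange), with 4 hearts in each group. Filled points were called and open points were not, and Il1r2 has no point at D21 because it was not tested there. The D15 values run from 1.80 (Il1r1) to 8.03 (Il1a) with short bars, and the D10 and D21 bars are longer.

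The D10 differences rested largely on 1 heart. All 10 fitted log2 fold changes at D10 were above 0, as were 48.5% of those of all genes. Of the members, 8 had an unadjusted p under 0.05, against 9.71% of all genes on the higher side, but the lowest adjusted p among them was 0.328. For 3 members (Il1a, Il1rn and Nlrp3) the EAM hearts did not overlap with the controls, against 4.41% of all genes. EAM replicate 1, the heart with the highest Ptprc level, was the highest of the 4 for 10 of 10 members, against 33.8% of genes. Without it the log2 fold change fell from 2.60 to 1.16 for Il1b, from 3.47 to 1.76 for Il1rn, from 4.13 to 2.02 for Il1r2 and from 2.43 to 1.28 for Nlrp3. Pycard, Casp1 and Gsdmd fell to 0.38, 0.49 and 0.37, and Il1a no longer reached 10 reads in 4 hearts. The other 3 EAM hearts had 25, 37 and 16 Il1a reads, where the D10 controls had 2, 4, 4 and 1. DESeq2 and edgeR's likelihood ratio test each called 1 member at D10, Il1a, and 0.319% and 0.299% of genes. Il1a and Il18 reached the D10 test through their EAM hearts alone, so their part in these D10 counts was partly built in.

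At D21 the hearts stood in a single order. EAM replicate 4 was the highest, then replicates 1, 2 and 3, for 10 of 10 members, against 18.7% of all genes tested, and Ptprc had the same order. The number of members called at D21 depended on single libraries, and so did the share of all genes. Without EAM replicate 3 the calls were 8 members and 9.78% of all genes, and without EAM replicate 4 they were 3 members and 1.98%. They were 0 members without EAM replicate 1 or 2 (0.0265% and 0.053% of genes) and without any 1 of the 4 controls. In those fits without a control no gene of the 15044 to 15093 tested was induced. Control and EAM hearts of the same number were weakly correlated at D21 (0.11 to 0.32), and hearts of unlike number were not compared. A fit that blocked on the replicate number called 4 members as well, and 3.94% of genes. Pycard then passed (log2 fold change 1.67, adjusted p = 0.00903) and Nlrp3 did not (2.60, adjusted p = 0.0114). At D21, 8 of the 9 members tested had EAM hearts wholly above the controls, against 17.8% of all genes tested, and so had Il1r2, which was not tested.

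**Figure D3:**
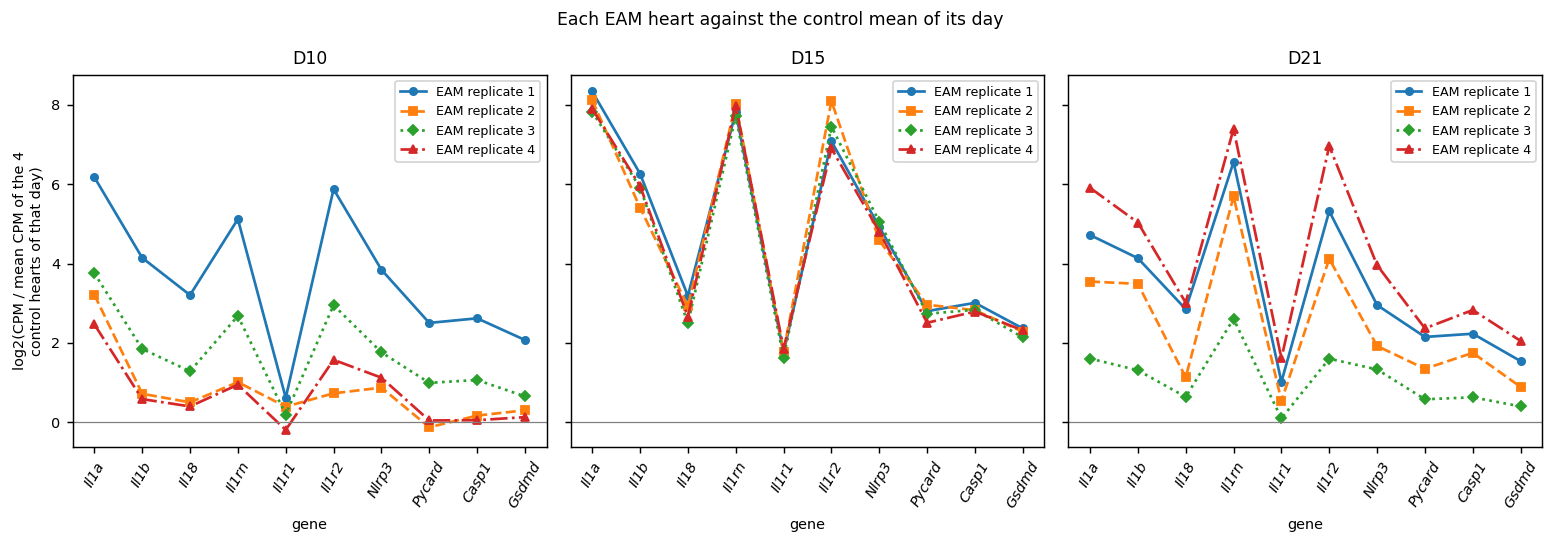
Log2 of each EAM heart's CPM over the mean CPM of the 4 control hearts of its day, with 1 line for each heart across the members. At D15 the lines lie close together, at D10 replicate 1 lies above the rest, and at D21 the order is 4, 1, 2, 3 at every member.

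Leucocyte marker lists rose with the members. At D15, 10 of 10 neutrophil and 10 of 10 monocyte and macrophage markers were induced, with median log2 fold changes of 3.44 and 2.47, and so were 6 of 7 T cell markers, against 18.1% of all genes. All 6 of these T cell markers and 2 of the neutrophil markers (Ly6g and Retnlg) reached the test through their EAM hearts alone. Of the cardiomyocyte markers 4 of 7 were repressed (median -1.33), against 12.9% of all genes. In the other lists 1 endothelial marker of 6 was repressed and 1 fibroblast marker of 6 induced, which is near the share of all genes and no result about either list. At D21, 1 of 10 neutrophil, 6 of 10 monocyte and macrophage and 6 of 7 T cell markers were induced, against 4.13% of all genes, and at D10 none of any list, as for all genes. Which D21 markers were tested through their EAM hearts alone is not given here, so a difference may be built into those counts too. Summed neutrophil markers were at 639.8 to 1209 CPM in D15 EAM and 21.6 to 97.2 CPM in D15 control hearts, and monocyte and macrophage markers at 1626 to 2413 and 304 to 387 CPM. In D10 EAM replicate 1 the neutrophil sum was 899.6 CPM, against 145 to 282 CPM in D10 controls, and at D21 it was 135 to 472 CPM in EAM hearts. Their part in the members' changes was not tested, and in bulk tissue more cells of a type and more RNA per cell cannot be told apart.

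The members were also set against Ptprc in the same heart. At D15, for 5 of them (Il1a, Il1b, Il1rn, Il1r2 and Nlrp3) the log2 ratio of member to Ptprc was higher in every EAM heart than in every control with a read, against 1.31% of the other genes tested. Of these, Il1a and Il1r2 reached the D15 test through their EAM hearts alone, so their higher ratio was partly built in. For the other 5 (Il18, Il1r1, Pycard, Casp1 and Gsdmd) it was lower in every EAM heart, as it was for 94.4% of genes, so a lower ratio is no result about these members. For Il1rn the log2 ratio was -5.14 to -3.52 in control hearts and -0.62 to -0.15 in EAM hearts. For Il1b it was -3.21 to -2.63 in control hearts and -1.27 to -0.67 in EAM hearts. In the other direction, Gsdmd was at -0.48 to -0.12 in control hearts and -2.01 to -1.82 in EAM hearts, and Il1r1 at 0.93 to 1.12 and -1.30 to -1.03. Ptprc itself had a log2 fold change of 3.98. At D21 the ratio of Il1rn was higher in all EAM hearts, against 1.03% of genes, and those of Il1r1, Pycard and Gsdmd were lower, against 89.6%, while the other 6 overlapped. At D10 it was higher for Il1a, Il1r2 and Nlrp3, against 0.386% of genes, and overlapped for 7. There Il1a was tested through its EAM hearts alone. For Il1r2 the groups barely parted, with the lowest EAM heart at -4.179 and the highest control at -4.181. These ratios describe the hearts and carry no test.

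**Figure D4:**
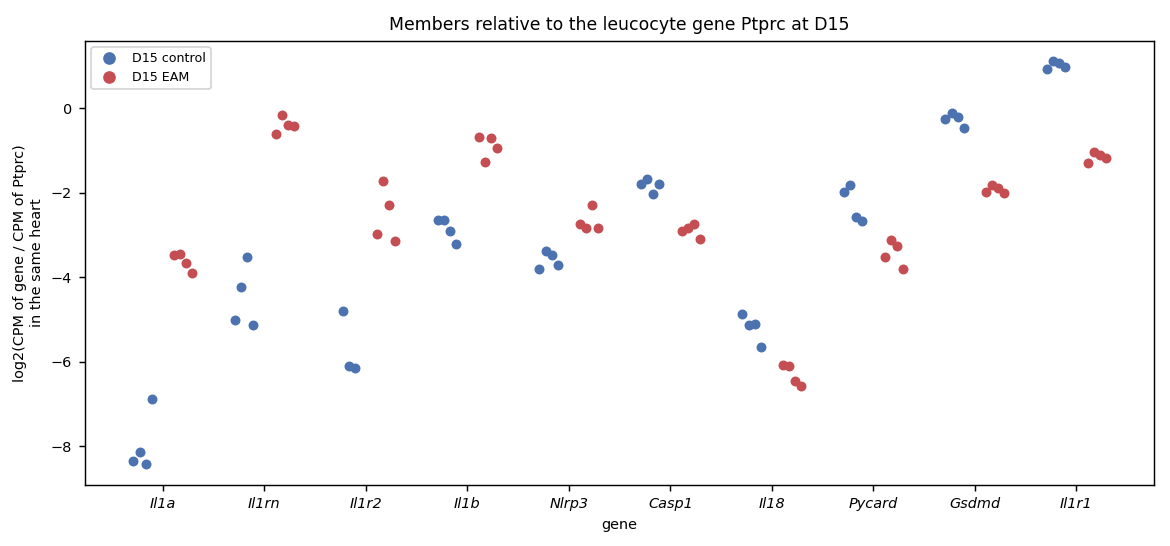
Log2 of the CPM of each member over the CPM of Ptprc in the same heart at D15, control in blue and EAM in red, 1 point for each heart. The EAM points lie higher for the 5 genes on the left and lower for the 5 on the right. 1 control heart with 0 Il1r2 reads has no point.

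Antagonist and decoy stood higher against their counterparts in EAM hearts at D15 and D21, when the ranges did not overlap. At D10 the ranges overlapped for both ratios. Per kilobase of the principal transcript, the ratio of Il1rn to Il1b was 0.105, 0.183, 0.357 and 0.144 in the D15 control hearts and 0.569, 1.19, 0.678 and 0.790 in the D15 EAM hearts. It was higher in each EAM heart than in each control, also at D21, where it was 0.108, 0.137, 0.211 and 0.152 in control and 0.776, 0.665, 0.355 and 0.742 in EAM hearts. At D10 it was 0.243, 0.455, 0.296 and 0.119 in control and 0.545, 0.340, 0.494 and 0.357 in EAM hearts. The exon union as length lowered the D15 EAM range to 0.358 to 0.748 and the D15 control range to 0.0663 to 0.225. The ratio of Il1r2 to Il1r1 was 1.05 to 2.54 in the D15 EAM hearts and at most 0.0674 in the D15 controls. With the union of annotated exons as length, a choice made after seeing the data, it was 0.857 to 2.07 in the D15 EAM hearts, so the decoy lay above the signalling receptor in all 4 hearts by the first length and in 3 by the second. At D21 it was 0.442, 0.268, 0.0639 and 0.915 in EAM hearts, below 1 in each. At D10 it was 0.0505, 0.0534, 0.104 and 0.0709 in control and 2.69, 0.0891, 0.476 and 0.240 in EAM hearts, so 3 of the 4 EAM hearts lay above every control and replicate 2 did not. It was above 1 in replicate 1 alone. By contrast Casp1 to Pycard stayed between 3.09 and 4.13 in D15 EAM hearts, inside the 2.83 to 4.66 of D15 controls.

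Within control hearts Il1r1 and Gsdmd were the members of highest level per kilobase, at 6.29 ± 0.643 and 8.31 ± 0.307 CPM per kb at D15. In D15 EAM hearts the order changed to Il1b (111 ± 25.9 CPM per kb), Il1rn (84.7 ± 8.34), Gsdmd (40.3 ± 2.63) and Il1r2 (35.3 ± 13.9), with Il18 lowest (4.11 ± 0.874). These 5 places were the same when the union of all annotated exons gave the length. Gsdmd and Il1r2 did not differ beyond the spread of Il1r2.

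Across the 6 groups the mean level was highest in D15 EAM hearts for 10 of 10 members, against 36.2% of the 16318 genes with at least 10 reads in 4 of the 24 hearts. D21 EAM was second for 8 and D10 EAM for 2 (Il1r2 and Nlrp3), but the second and the third group overlapped for all 10. For 7 members the D15 EAM hearts were wholly above the group of the next mean, against 7.56% of those genes, and for Il18, Il1r2 and Casp1 they overlapped with it. They were above every heart of the 5 other groups for 5 members (Il1a, Il1rn, Il1r1, Nlrp3 and Gsdmd), against 6.53%. D10 EAM replicate 1 lay inside the D15 EAM range of Il1b, Il18, Il1r2 and Pycard, and D21 EAM hearts inside that of Il18 and Casp1.

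The EAM effect was then compared between days in a fit of all 24 hearts. From D10 to D15 the log2 effect grew for all 10 members and for 48.3% of genes. The growth passed the test for 1, Il1r1, by 1.47 ± 0.32 (adjusted p = 0.00244), against 5.38% of 16318 genes. For Il1rn it grew by 4.38 ± 1.30 (adjusted p = 0.0105), for Il1b by 3.30 ± 0.98 (adjusted p = 0.0107) and for Nlrp3 by 2.4 ± 0.81 (adjusted p = 0.0202), none of which passed. At an unadjusted p under 0.05 there were 7, against 24% of all genes. Without D10 EAM replicate 1 the growth passed for 8 members, all but Il1a and Il18, and for 12.3% of genes. Without D10 control replicate 4 it passed for 2 members and 5.29% of genes. The likelihood ratio test called 4 members and 7.65% of genes.

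From D15 to D21 all 10 effects were smaller, by 0.57 to 3.34 on the log2 scale, as were 50.1% of those of all genes, and 0 passed the test, against 0.919% of genes in that direction. At an unadjusted p under 0.05 there were 3 (Il1a, Il1r1 and Nlrp3), against 17.3%. For Nlrp3 the change was -1.96 ± 0.81 (adjusted p = 0.0751) and for Il1r1 -0.83 ± 0.32 (adjusted p = 0.0601). Without D21 EAM replicate 4 the change of Il1r1 passed, beside 2.74% of genes, and the likelihood ratio test and limma-voom called 0. The D15 hearts enter both comparisons, and the D21 EAM libraries are those of the other library code.

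Some members also had lower fitted levels in control hearts of the later days, though no member passed the test. All were given adjuvant and toxin. Il1b was at 9.65, 6.04, 4.16 and 5.15 CPM in D10 controls and 2.71, 2.66, 2.38 and 2.24 CPM in D15 controls, which did not overlap (log2 difference -1.31 ± 0.24, adjusted p = 0.0245). Il1rn was at 4.28, 5.02, 2.25 and 1.12 CPM in D10 and 0.813, 0.768, 0.875 and 0.922 CPM in D21 controls, again without overlap (-1.91 ± 0.42, adjusted p = 0.0133). Il1r1, whose EAM effect differed between D10 and D15, had control means of 53.4 ± 11.5 CPM at D10 and 36.6 ± 3.74 CPM at D15 (-0.54 ± 0.14, adjusted p = 0.0657). Il1r2 was lower at D21 than at D10 by 2.21 ± 0.59 (adjusted p = 0.0293). Pycard, Casp1, Gsdmd and Il18 had differences between -0.22 and 0.05 on both later days. At an unadjusted p under 0.05, 5 of 9 members were lower at D15 and 4 of 9 at D21, against 8.37% and 13.3% of 15311 genes, while 0.0718% and 0.353% of genes passed the full rule as lower. The likelihood ratio test called 2 at D15 (Il1b and Il1rn) and 2 at D21 (Il1rn and Il1r2), beside 1.18% and 1.92% of genes in either direction. As groups, summed neutrophil markers were lower on the later days too, at 145 to 282 CPM in D10, 21.6 to 97.2 in D15 and 13.6 to 130.3 CPM in D21 controls. Heart by heart they did not follow Il1b: in D10 controls the sum was highest in replicate 3, where Il1b was lowest (4.16 CPM). Ptprc was at 23.9 to 38.6, 16.5 to 20.7 and 15.0 to 29.4 CPM, and summed monocyte and macrophage markers at 374 to 643, 304 to 387 and 305 to 476 CPM, in the same order of days. The part of these markers was not tested. The EAM effects of Il1rn are therefore set against control means of 3.17 ± 1.80 CPM (SD, n = 4) at D10 and 0.887 ± 0.471 CPM at D15.

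Beyond the members, 48 further genes of the pathway were looked at in 7 roles. At D15, 40 were tested, 26 were induced and 1 was repressed, against 18.1% and 12.9% of all genes. At D21, 8 of 39 were induced, against 4.13%, and at D10, 0 of 40, against 0%. At D15, 3 of them (Il36g, Mefv and Nlrp12) reached the test through their EAM hearts alone. Both further ligands tested rose at D15, Il36g by 6.04 ± 0.34 and the alarmin Il33 by 3.48 ± 0.19. Of 5 further receptors and coreceptors 4 rose, led by the IL-18 receptor chains Il18rap (5.20 ± 0.14) and Il18r1 (3.18 ± 0.24), which were both induced at D21 too. The IL-18 binding protein Il18bp, which neutralizes IL-18, rose by 2.59 ± 0.08.

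In the next step of the pathway, 4 of 11 genes of MyD88 signalling were induced at D15, against 18.1% of all genes, the share for each role below too. The adaptor Myd88 (2.25 ± 0.08) and the kinase Irak4 (1.78 ± 0.11) were highest. Of 9 other sensors tested 8 were induced, led by Mefv, which encodes pyrin (6.47 ± 0.29), and Nlrp12 (3.91 ± 0.48). Nlrp10 was the exception, repressed by 1.08 ± 0.12 (adjusted p = 4.01e-05), as were 12.9% of all genes. Among other caspases and gasdermins 3 of 4 rose, led by Casp4 (2.91 ± 0.13), the caspase of the noncanonical inflammasome, and Casp8 (1.41 ± 0.08). Among modulators of NLRP3, 4 of 7 rose, led by Gbp2 (3.63 ± 0.12) and the channel gene Panx1 (2.66 ± 0.20). The pathway median at D15 was 1.91, beside 3.90 for the members and 0.02 for all genes.

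For each member the 2 genes of closest profile over the 24 hearts were found by the root mean square difference of centred log2(CPM + 1) values, among 14205 genes. Il1a was closest to Olr1 (0.211) and Plaur (0.254), and Il1b to Csf2rb (0.275) and Fgr (0.358). Il1rn was closest to Timp1 (0.331) and F10 (0.511), and Il1r2 to Slfn1 (0.395) and Fpr2 (0.399). Nlrp3 was closest to Lcp2 (0.244) and Tarm1 (0.259), Casp1 to Naaa (0.148) and Slc9a3r1 (0.169), Pycard to Tpd52 (0.182) and Cyba (0.189), and Gsdmd to Bak1 (0.133) and Sp110 (0.147). Il1r1 was closest to Spidr (0.157) and Osmr (0.179), and Il18 to Pfkfb4 (0.165) and Tpm3-rs7 (0.174). The members themselves varied by 0.66 (Il1r1) to 2.71 (Il1rn) on the same measure. These hearts share days and libraries, so the list is a description.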

How the data were processed

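RNA from a portion of the heart was sequenced in 24 mice. The authors aligned reads with HISAT2 2.0.4 to GRCm38, removed duplicates with Picard and counted reads per Ensembl gene with featureCounts, and the deposited values are these raw counts. Removing duplicates by position can lower the counts of highly expressed genes. The sources used here do not give the strand setting of the counting. The table held 41388 genes and 92 spike-in features with 0 reads, which were left out.

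Groups came from the sample labels. EAM and control hearts of each day were compared with edgeR 4.0.16 (quasi-likelihood test, TMM scaling) in R 4.3.3, in a fit of 8 hearts, over genes with at least 10 reads in 4 samples. Effects were compared between days in a fit of 24 hearts, and controls between days in a fit of 12. A gene was called at an adjusted p (Benjamini-Hochberg over all genes tested) under 0.01 and a change of 2-fold. Standard errors of fold changes were derived from the fold change and the F value of the test, so they are approximate. DESeq2 1.42.0 and limma 3.58.1 (voom) served as alternatives, with other scaling, filters, limits and each heart left out in turn. The scripts were tested on simulated counts. Control and EAM hearts of the same replicate number had correlations of 0.11 to 0.32 in 4 pairs at D21, which met the rule for pairing (all over 0.1). D10 and D15 did not meet it, although replicates 1 and 4 at D10 reached 0.38 and 0.43. Hearts of unlike number were not compared. Nothing in the labels says what the numbers share.

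All members are named. Of other pathway genes, at most the 2 largest fitted D15 changes per role among those called are named, and any called the other way. The members and lists were chosen with earlier results of these data known. Library totals limit precision for genes of few reads. Intervals cover counting error only. Promoter sequences came from RefSeq (GRCm38.p6).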

Additional observations from a re-analysis of the deposited data

Results flagged for a closer look

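In 10 of 60 groups of 4 hearts, 1 heart lay further from the others than Dixon's 95% limit allows, where chance gives about 1 in 20. Of these, 7 were EAM replicate 1 at D10: Il1a at 11 CPM, Il1b at 111 CPM, Il18 at 4.42 CPM, Il1rn at 110.0 CPM, Il1r2 at 53.9 CPM, Nlrp3 at 33.7 CPM and Gsdmd at 64.6 CPM, each above the other 3 hearts. The 7 genes share that heart and are not independent. The other 3 were control hearts: Il1a in D15 control replicate 4 (0.177 CPM, high, but 3 reads against 1 in each of the others), Nlrp3 in D15 control replicate 1 (1.2 CPM, low) and Gsdmd in D21 control replicate 2 (12.1 CPM, low).

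The EAM effect on Il1r1 differed between D15 and D10 by 1.47 on the log2 scale, which passed the test of the difference. The EAM means were 65.2 and 124 CPM at D10 and D15, and the control means 53.4 and 36.6 CPM. Part of the fitted difference thus lies in the controls, whose own change did not pass the quasi-likelihood test (adjusted p = 0.0657).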

How the results depend on the processing

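Percentages in brackets are the share of all genes called in the same fit. At D15 the 10 members (18.1%) were called under every alternative but 1 kind (12.3% with no filter to 33.2% with no fold limit). Without any 1 EAM heart 9 were called (15.5% to 16.6%), when Il1a fell under the read minimum (range 9 to 10). At D10 the likelihood ratio test (0.299%) and DESeq2 (0.319%) called 1, Il1a, which was tested through its EAM hearts alone. There limma-voom called 0 (0%), and leaving out a heart 0 to 0. At D21, against 4 (4.13%), the likelihood ratio test (8.88%), DESeq2 (8.93%) and an adjusted p under 0.05 (9.3%) gave 8. No filter gave 7 (3.54%), all 24 hearts in the fit 9 (9.28%) and total counts in place of TMM 3 (3.61%). With limma-voom there were 0 (0.524%), and leaving out a heart gave 0 to 8 (0% to 9.78%). For the change in effect from D10 to D15, against 1 (5.38%), the likelihood ratio test gave 4 (7.65%) and leaving out a heart 1 to 8 (12.3% for the 8). From D15 to D21, against 0 (0.919%), leaving out a heart gave 0 to 1 (2.74% for the 1). Between control days, against 0 (0.0718% at D15 and 0.96% at D21, in either direction), the likelihood ratio test gave 2 at D15 (1.18%) and 2 at D21 (1.92%). Leaving out a heart gave 0 to 1 at each, with 1 called without D10 control replicate 4 (0.314% at D15 and 0.687% at D21). The causes were not tested.

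With the replicate number as a block, 0 members were called at D10 (0.00665% of genes), 10 at D15 (17.7%) and 4 at D21 (3.94%). The block changed the calls of Nlrp3 and Pycard at D21 and no other call. Over the members' log2 fold changes, 0 of 156 alternatives at D10, 0 of 156 at D15 and 0 of 140 at D21 reversed direction. At D21, 28 lost and 20 gained a call. Il1a, Il18 and Il1r2 had few reads in control hearts, which limits their fold changes. Length by exon union, chosen after seeing the data, moved the mean log2 ratio of Il1rn to Il1b in D15 EAM hearts from -0.37 to -1.04 and that of Il1r2 to Il1r1 from 0.66 to 0.36.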
